A study of Mus musculus with 12 samples.

Results

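The 8 genes described here are the mouse DNA methyltransferases Dnmt1, Dnmt3a and Dnmt3b, their cofactors Dnmt3l and Uhrf1, and the TET dioxygenases Tet1, Tet2 and Tet3. They were taken by symbol from a table of 23235 genes, and all 8 were in it. RNA was measured in spermatocytes of C57BL/6 mice, collected by fluorescence-activated cell sorting whose purity was checked, in 4 groups of 3 libraries. The groups were pachytene cells labelled Rnaseh1 knock-out (KO-labelled), wild-type (WT) pachytene cells, KO-labelled leptotene/zygotene (LZ) cells and WT LZ cells. The labels name no Cre driver, deleted exon or age of the mice and do not say whether replicates came from separate animals, so p-values measure the spread between these libraries. Values are FPKM (fragments per kilobase of transcript, relative to the mapped fragments of the library) that the authors scaled between libraries with ERCC spike-in RNA.

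Cytosine methylation in mammals is copied to new DNA strands by Dnmt1, which Uhrf1 brings to hemimethylated sites, and is set up on unmethylated DNA by Dnmt3a and Dnmt3b. Dnmt3l has no catalytic activity of its own and is needed with the de novo enzymes for methylation of transposons and imprinted genes in prospermatogonia of the male mouse germ line. TET enzymes oxidise 5-methylcytosine, and the oxidised bases can be lost at replication or cut out by base excision repair. In mouse spermatocytes Dnmt1 is known to be transcribed from an alternative first exon at pachytene, and Dnmt3l has several start sites. The table gives 1 value per gene, so isoforms were not separated.

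Promoter sequence was compared because Uhrf1 and Dnmt1, the maintenance pair, were the most abundant members, while Dnmt3a changed in the opposite direction to Uhrf1 in KO-labelled pachytene cells. Windows of 300 bases, 250 before and 50 after each start, came from RefSeq on GRCm38.p6, and all 8 genes matched, with 15 windows in all. Both strands were searched for the octamers TTTCGCGC and TTTGGCGC, of the kind that E2F cell-cycle factors are known to bind. An octamer was present in 1 window of Uhrf1 and 1 of Dnmt1, in no window of the other 6 genes, and in 0.813% of all 32851 windows. These 2 windows are printed with 1 of Dnmt3a and that of Dnmt3b, 5′ to 3′ on the gene's strand, with the octamers in capitals.
Uhrf1, chr17:56304063-56304362, plus strand: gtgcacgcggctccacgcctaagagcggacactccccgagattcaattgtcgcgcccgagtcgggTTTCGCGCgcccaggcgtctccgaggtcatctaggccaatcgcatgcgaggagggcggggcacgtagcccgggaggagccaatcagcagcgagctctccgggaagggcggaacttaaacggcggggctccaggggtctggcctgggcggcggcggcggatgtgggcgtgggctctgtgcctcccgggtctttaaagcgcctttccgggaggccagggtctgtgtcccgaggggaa
Dnmt1, chr9:20952574-20952873, minus strand: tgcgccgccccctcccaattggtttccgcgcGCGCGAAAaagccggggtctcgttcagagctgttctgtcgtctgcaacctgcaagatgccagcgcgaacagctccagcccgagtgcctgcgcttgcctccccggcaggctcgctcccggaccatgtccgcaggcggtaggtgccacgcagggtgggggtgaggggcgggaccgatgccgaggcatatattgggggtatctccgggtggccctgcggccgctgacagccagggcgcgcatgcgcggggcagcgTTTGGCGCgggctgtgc
Dnmt3a, chr12:3806730-3807029, plus strand: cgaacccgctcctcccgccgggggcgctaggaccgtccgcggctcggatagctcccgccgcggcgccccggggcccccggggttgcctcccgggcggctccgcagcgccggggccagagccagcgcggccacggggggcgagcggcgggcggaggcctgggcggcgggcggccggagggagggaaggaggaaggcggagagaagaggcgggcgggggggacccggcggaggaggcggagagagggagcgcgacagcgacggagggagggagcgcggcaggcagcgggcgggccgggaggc
Dnmt3b, chr2:153649199-153649498, plus strand: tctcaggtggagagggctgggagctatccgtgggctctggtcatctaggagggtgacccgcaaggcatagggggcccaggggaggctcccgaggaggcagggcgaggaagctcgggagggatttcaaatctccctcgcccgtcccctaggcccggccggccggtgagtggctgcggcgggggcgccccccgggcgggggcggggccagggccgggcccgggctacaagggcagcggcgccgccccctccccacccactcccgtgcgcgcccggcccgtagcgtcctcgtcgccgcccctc

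The windows printed for Uhrf1 and Dnmt1 each held 33 CpG, that of Dnmt3a 46 and that of Dnmt3b 30, against a median of 7 over all windows. The other Dnmt1 windows held 12 and 2 CpG, and the other Uhrf1 window 12. The Dnmt3l windows were poor in CpG, at 6, 4 and 3, whereas Tet1 had 17, Tet2 57 and Tet3 22. Only 8.56% of all windows held 33 CpG or more. Both octamers contain CpG, so 0.813% of all windows is not the share among such CpG-rich windows, which was not counted. A match describes the letters of a window and says nothing of binding in these cells.

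Summed values ran between 430372 and 6702158 per library on the spike-in scale, and between 810415 and 992206 after the common factor of each library was divided out. These factors were inferred from the values, with the resulting sum held within preset bounds, so the likeness of the sums is partly set by the search. Values called before the spike-in scaling rest on these inferred factors. Correlations of log2 values between libraries of a group were 0.923 to 0.952 in the KO-labelled LZ group and 0.967 to 0.975 in the other groups. Depth is unknown, because the table holds no read counts. Of the 23235 genes, 15400 were tested, each with an FPKM of 1 or more in 3 or more libraries. Rnaseh1, the gene named by the labels, was not lower in the KO-labelled pachytene libraries, at 77.3, 68.9 and 94.3, against 52.7, 51.7 and 56.8 in WT pachytene libraries. It was 11, 18.3 and 14.8 in KO-labelled LZ libraries, against 16.1, 20.5 and 16.8 in WT LZ libraries, with overlapping ranges. Whether these values cover the deleted part of the gene is not known from the labels, hence the name KO-labelled. The 10 pachytene marker genes summed to 10944 to 12565 per 1000000 of a library's total in KO-labelled and 7921 to 9482 in WT pachytene libraries, above 2894 to 4038 and 3686 to 4767 in KO-labelled and WT LZ libraries. The 10 leptotene and zygotene markers in the table ran the other way, at 452 to 589, 570 to 694, 1541 to 1856 and 1434 to 1704 in the same order of groups. In bulk samples, fewer cells of a type and less RNA per cell cannot be told apart.

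Uhrf1 was the most abundant of the 8 genes in all 4 groups. It had 266, 244 and 221 FPKM in KO-labelled pachytene libraries, against 135, 104 and 156 in WT pachytene libraries. It had 13.8, 17.7 and 22.5 in KO-labelled LZ libraries, against 34.5, 27.2 and 19.8 in WT LZ libraries. All KO-labelled pachytene libraries lay above all WT pachytene libraries, while the ranges of the genotypes overlapped at LZ.

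Dnmt1, the maintenance methyltransferase, ranked next in every group. Its levels were 51.0, 57.9 and 50.4 FPKM in KO-labelled pachytene libraries, against 46.5, 25.7 and 39.7 in WT pachytene libraries. At LZ they were 6.62, 7.11 and 9.01 in KO-labelled libraries, against 14.8, 8.18 and 8.81 in WT libraries. The pachytene groups did not overlap, although WT replicate 1 came close to the KO-labelled libraries, and the LZ groups did overlap.

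Dnmt3b was the more abundant of the de novo enzymes. It had 9.29, 13.1 and 10.6 FPKM in KO-labelled pachytene libraries, against 21.8, 15.4 and 15.1 in WT pachytene libraries. In LZ cells it had 5.87, 2.92 and 5.26 in KO-labelled libraries, against 12.4, 7.77 and 5.24 in WT libraries. The KO-labelled libraries were the lower ones at pachytene without overlap, and WT LZ replicate 3 lay within the KO-labelled range.

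Dnmt3a, the other de novo enzyme, was low throughout. It had 1.5, 1.28 and 2.33 FPKM in KO-labelled pachytene libraries, against 4.71, 3.43 and 4.79 in WT pachytene libraries. In KO-labelled LZ libraries it had 3.58, 2.88 and 4.60, against 7.46, 4.37 and 2.88 in WT LZ libraries. The KO-labelled pachytene group was the lowest of the 4 and overlapped none of the others.

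Dnmt3l had 1.00, 0.760 and 1.74 FPKM in KO-labelled pachytene libraries, against 2.86, 5.06 and 6.42 in WT pachytene libraries. It had 0.885 and 0.545 in KO-labelled LZ replicates 1 and 3 and was listed at 0 in replicate 2, against 0.513, 1.07 and 1.89 in WT LZ libraries. WT pachytene libraries were the highest and overlapped no other group.

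Among the dioxygenases, Tet1 lay between 0.00681 and 0.208 FPKM in all 12 libraries. Tet2 lay at or under 0.434 and was listed at 0 in KO-labelled LZ replicate 1. Neither passed the filter, so neither was tested. Tet3 had 0.0915, 0.780 and 0.698 in KO-labelled pachytene libraries, against 1.65, 1.05 and 1.36 in WT pachytene libraries. It had 0.516, 0.911 and 0.877 in KO-labelled LZ libraries, against 2.0, 1.08 and 1.14 in WT LZ libraries. Tet3 passed the filter through its 6 WT libraries alone, and all 6 KO-labelled libraries were under 1. Dnmt3l reached 1 in 7 libraries, and its only KO-labelled ones were pachytene replicates 1 and 3. These are fewer than the 3 that the filter needs, so Dnmt3l too would not have passed without its WT libraries. Thus 6 of the 8 genes were tested, and Uhrf1, Dnmt1, Dnmt3b and Dnmt3a reached 1 in all 12 libraries.

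**Figure D1:**
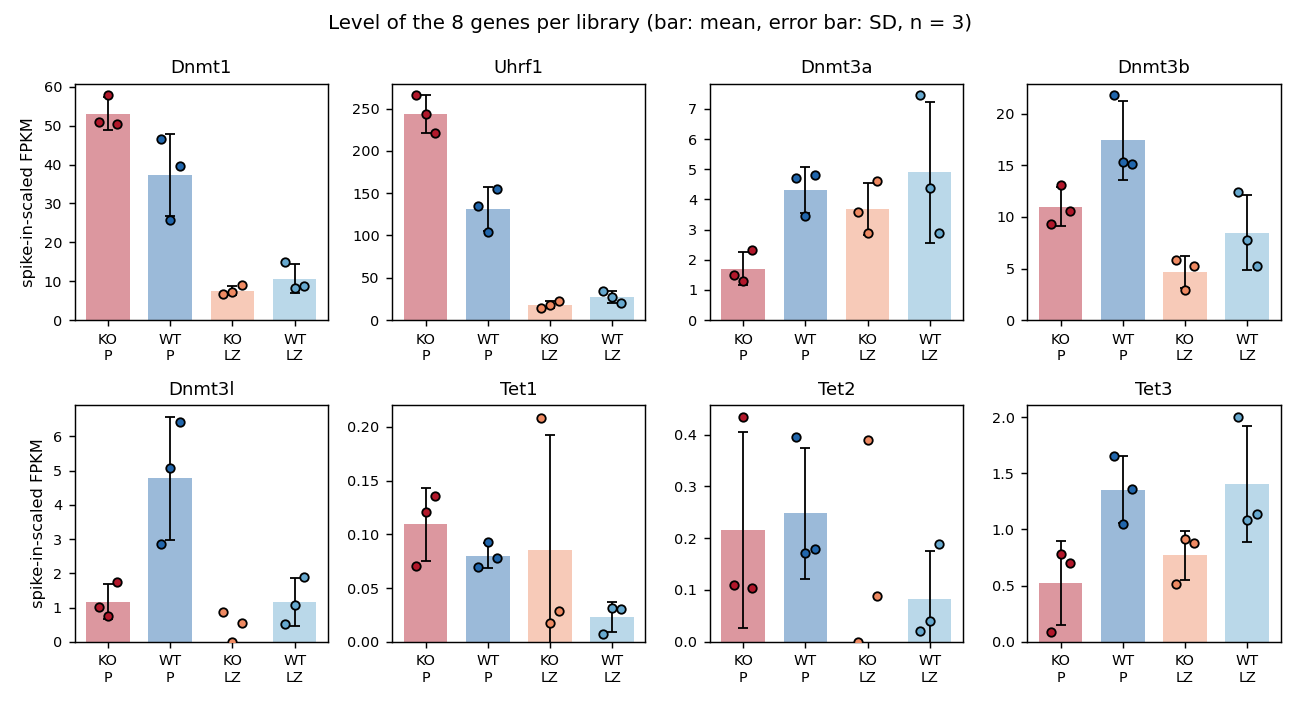
Spike-in-scaled FPKM of the 8 genes in each library (points), with the group mean (bar) and SD (line) over 3 libraries, for KO-labelled pachytene, WT pachytene, KO-labelled LZ and WT LZ cells; a group with a library listed at 0 has points only. Uhrf1 in KO-labelled pachytene libraries, at 221 to 266, stands above the other groups, and Tet1 and Tet2 stay under 1.

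Because FPKM are per length, the levels can be ordered within a group. In KO-labelled pachytene cells Uhrf1 (244 ± 22.5, SD, n = 3), Dnmt1 (53.1 ± 4.19), Dnmt3b (11 ± 1.92) and Dnmt3a (1.70 ± 0.552) stood apart from each other in that order, and Dnmt3a and Dnmt3l overlapped. In WT pachytene cells Uhrf1 (131 ± 26.1), Dnmt1 (37.3 ± 10.6) and Dnmt3b (17.4 ± 3.82) stood apart, and Dnmt3l (4.78 ± 1.80) overlapped Dnmt3a (4.31 ± 0.761). At LZ the order was compressed. Uhrf1 (18.0 ± 4.37), Dnmt1 (7.58 ± 1.26) and Dnmt3b (4.68 ± 1.56) stood apart in KO-labelled LZ cells, where Dnmt3b overlapped Dnmt3a (3.69 ± 0.864). In WT LZ cells Uhrf1 (27.2 ± 7.33) stood apart from Dnmt1 (10.6 ± 3.68), which overlapped Dnmt3b (8.47 ± 3.64), and Dnmt3b overlapped Dnmt3a (4.90 ± 2.34).

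Ratios between 2 genes in the same library do not depend on how the library was scaled, and are given as descriptions without a test. Dnmt1 made up 80.7% ± 1.58 of the summed FPKM of Dnmt1, Dnmt3a and Dnmt3b in KO-labelled pachytene libraries, against 62.7% ± 4.52 in WT pachytene libraries (SD, n = 3). The share was 48.0% ± 6.95 in KO-labelled LZ libraries, against 45% ± 6.22 in WT LZ libraries. The pachytene groups did not overlap, and the LZ groups did. Dnmt3b over Dnmt1 was 0.182 to 0.226 in KO-labelled and 0.381 to 0.599 in WT pachytene libraries. Dnmt3a over Dnmt1 was 0.0221 to 0.0462 in KO-labelled and 0.101 to 0.134 in WT pachytene libraries, and it was higher at LZ, at 0.405 to 0.541 in KO-labelled and 0.327 to 0.534 in WT libraries. Uhrf1 over Dnmt1 was 4.22 to 5.21 in KO-labelled and 2.90 to 4.04 in WT pachytene libraries. At LZ it was 2.09 to 2.50 in KO-labelled and 2.25 to 3.33 in WT libraries. Dnmt3b over Dnmt1 at LZ was 0.410 to 0.887 in KO-labelled and 0.594 to 0.949 in WT libraries, which overlapped the WT pachytene libraries. The ratio of Dnmt3a to Dnmt1 was thus lower in every pachytene library than in every LZ library, that of Dnmt3b to Dnmt1 was not, and both were lowest in the KO-labelled pachytene libraries.

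**Figure D2:**
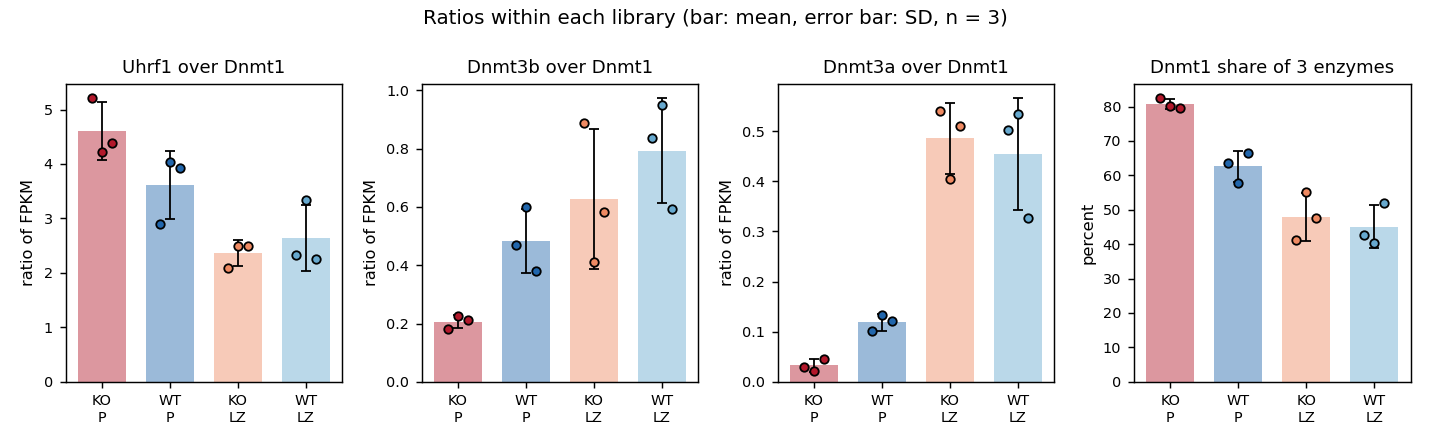
Ratios of the FPKM of 2 genes in the same library, and the share of Dnmt1 in the summed FPKM of Dnmt1, Dnmt3a and Dnmt3b in percent, by group (points: libraries; bar: mean; line: SD, n = 3). Dnmt3b over Dnmt1 and Dnmt3a over Dnmt1 are lowest in KO-labelled pachytene libraries, where Dnmt3a over Dnmt1 is 0.0221 to 0.0462.

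The comparison of genotypes within pachytene asks how these transcripts differ between KO-labelled and WT cells. Uhrf1 rose and Dnmt3a and Dnmt3l fell in KO-labelled pachytene cells, while Dnmt1, Dnmt3b and Tet3 did not pass the test. The log2 change of Uhrf1 was 0.90 (SE 0.25, adjusted p = 0.0201 by limma with Benjamini-Hochberg adjustment over all genes tested). That of Dnmt3a was -0.98 (SE 0.31, adjusted p = 0.0285) and that of Dnmt3l was -1.39 (SE 0.34, adjusted p = 0.0147). Dnmt3l would not have passed the filter without its WT libraries, so its lower call is not separate from the filter. These changes are on the log2(FPKM + 1) scale, which understates changes of low genes such as Dnmt3a and Dnmt3l. The changes that missed the threshold were 0.54 for Dnmt1 (adjusted p = 0.128), -0.61 for Dnmt3b (adjusted p = 0.133) and -0.65 for Tet3 (adjusted p = 0.062).

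Many other genes differed in this comparison: 24.6% of the genes tested were called higher and 14.3% lower in KO-labelled pachytene libraries, and 1 member higher and 2 lower of 6 tested are too few to set apart from that background. The ranges of the groups did not overlap for Uhrf1 and Dnmt1, which were higher in KO-labelled libraries, and for Dnmt3a and Dnmt3b, which were lower. Of all genes tested, 36.4% were higher and 18.0% lower in this way. Dnmt3l and Tet3 were lower too, but are not counted here because neither would have passed the filter without its WT libraries. The median log2 change of all genes tested was 0.37. Relative to it, Uhrf1 stood at 0.53, Dnmt1 at 0.17, Dnmt3b at -0.98, Tet3 at -1.02, Dnmt3a at -1.35 and Dnmt3l at -1.76. Uhrf1 was higher than 88.8% of the genes tested, and Dnmt3a, Dnmt3b and Dnmt3l were higher than 14.1%, 20.4% and 9.18%.

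After scaling each library by its median ratio to the mean of all libraries, Uhrf1 (0.55, adjusted p = 0.0341) and Dnmt3a (-0.87, adjusted p = 0.0359) were called and Dnmt3l (-1.13, adjusted p = 0.127) was not, where 3.57% of genes were called higher and 9.62% lower by limma. Before the spike-in scaling none of the 6 was called, with Uhrf1 at 0.26 (adjusted p = 0.382) and Dnmt3a at -0.67 (adjusted p = 0.0805), and Dnmt1 turned to -0.08. Of all genes, 0.26% were called higher and 10.8% lower on those values. On them Dnmt3a was 0.186 to 0.420 in KO-labelled and 0.838 to 1.20 in WT pachytene libraries. Dnmt3l was 0.110 to 0.314 and 0.731 to 1.31. Neither overlapped, but the share of all genes without overlap was not counted on these values, so the 2 genes cannot be set apart by it. The FPKM + 1 of the fit understates changes at these lower values more than on the spike-in scale. In limma the Uhrf1 call was lost without KO-labelled pachytene replicate 1 (0.84, adjusted p = 0.0793) or 2 (0.90, adjusted p = 0.0672), or without WT pachytene replicate 1 (0.93, adjusted p = 0.0516) or 2 (0.74, adjusted p = 0.0698). Of the 15400 genes tested, 300, 370, 933 and 797 were called higher in these 4 settings, against 3784 with all libraries. The Dnmt3a call was lost without KO-labelled replicate 1 (-0.94, adjusted p = 0.0945) or 2 (-0.87, adjusted p = 0.0968), or without WT replicate 1 (-0.93, adjusted p = 0.0826), 2 (-1.11, adjusted p = 0.0514) or 3 (-0.91, adjusted p = 0.0606). That of Dnmt3l was lost without KO-labelled replicate 1 (-1.34, adjusted p = 0.0517) or 2 (-1.25, adjusted p = 0.0576). Over all genes tested, 1071 and 978 were called lower without KO-labelled replicate 1 or 2. Without WT replicate 1, 2 or 3 the counts were 1232, 1382 and 1714, against 2196 with all libraries.

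Markers of other cells also differed between the pachytene groups. The 8 round spermatid markers summed to 297 to 1945 per 1000000 in KO-labelled libraries, against 8817 to 13203 in WT libraries. The 10 spermatogonial markers summed to 57.0 to 121 in KO-labelled libraries, against 143 to 214 in WT libraries. The 8 Sertoli markers in the table summed to 85.9 to 107 in KO-labelled libraries, against 196 to 292 in WT libraries, and the 6 peritubular and endothelial markers to 26.9 to 41.6, against 153 to 166. The 6 Leydig markers, at 282 to 903 in KO-labelled and 704 to 2149 in WT libraries, and the blood markers, at 34.9 to 70.9 and 28.3 to 128, overlapped. The S phase list, which includes Pcna, summed to 630 to 682 in KO-labelled libraries, against 575 to 651 in WT libraries. No gene of these lists was at 0 in all 3 libraries of either pachytene group. Their part in the changes of Uhrf1, Dnmt3a and Dnmt3l was not tested.

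**Figure D3:**
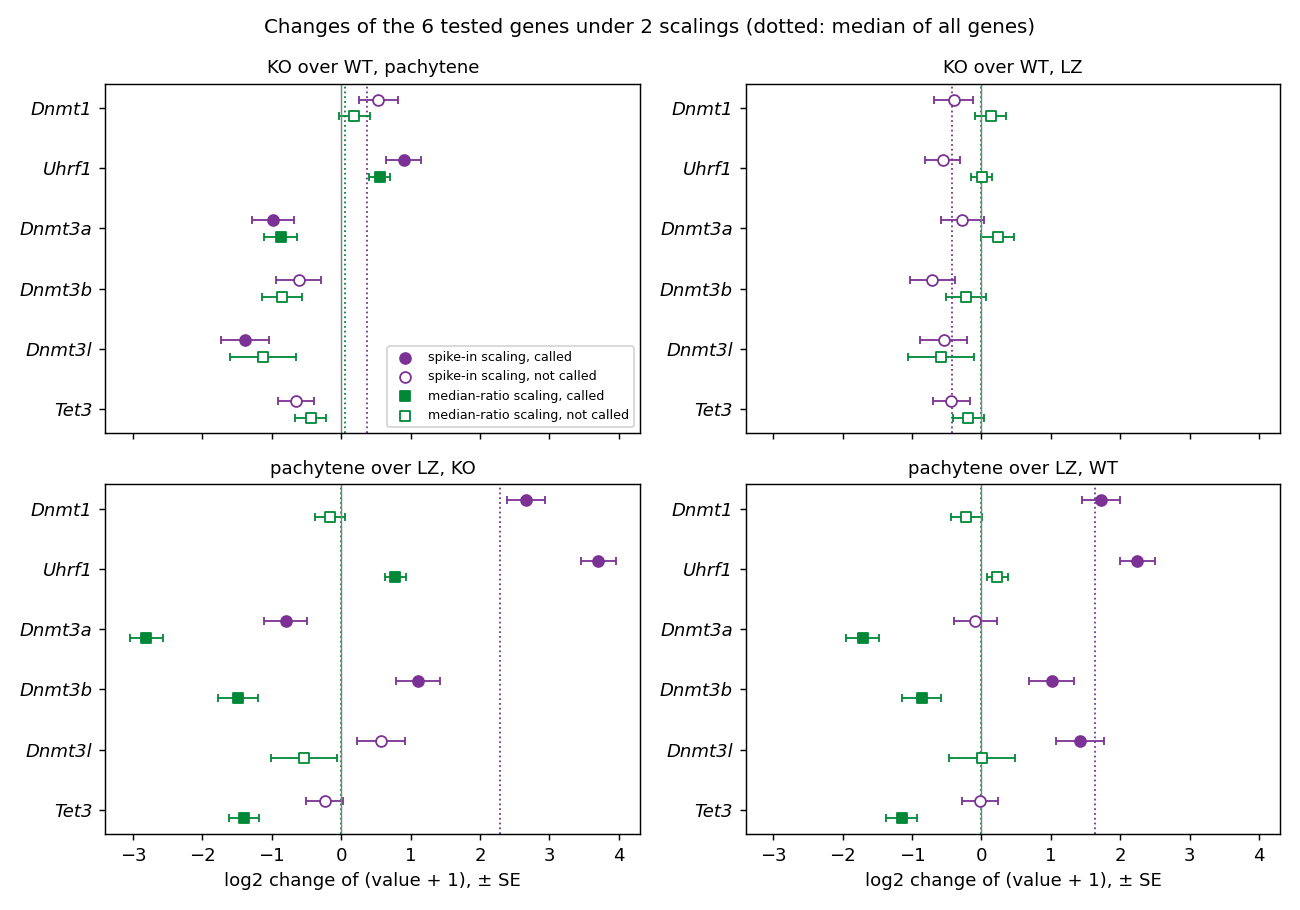
Log2 change of the 6 tested genes in the genotype and stage comparisons (points; filled where called by limma) with the standard error (line), under the spike-in scaling and the median-ratio scaling, with the median of all genes tested as dotted lines. Uhrf1 in KO-labelled against WT pachytene cells is called under both (0.90 and 0.55), while Dnmt1 and Dnmt3b lie on opposite sides of 0 under the 2 scalings in both stage comparisons.

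Within LZ none of the 6 tested genes was called between genotypes by limma, where 0.136% of all genes tested were called higher and 12.9% lower in KO-labelled libraries. The log2 changes ran from -0.71 for Dnmt3b (adjusted p = 0.143) to -0.27 for Dnmt3a (adjusted p = 0.553), around a median of -0.43 over all genes. Uhrf1 was at -0.56 (adjusted p = 0.139) and Dnmt1 at -0.40 (adjusted p = 0.323). The ranges of the genotypes overlapped for all but Tet3, which passed the filter through WT libraries alone. All KO-labelled libraries lay below all WT libraries for 36.5% of the genes tested and above them for 0.935%. After median-ratio scaling Dnmt1 (0.13), Uhrf1 (0.00) and Dnmt3a (0.23) were no longer negative. None of the 6 was called on that scale or before the spike-in scaling, where limma called 0.39% and 0.825% of all genes higher and 0.688% and 1.26% lower. The round spermatid markers summed to 1631 to 12612 per 1000000 in KO-labelled LZ libraries, against 20824 to 35722 in WT LZ libraries. Sertoli markers went the other way, at 691 to 1401 in KO-labelled and 382 to 681 in WT LZ libraries, without overlap. Spermatogonial markers (432 to 568 and 489 to 684) and Leydig markers (7.08 to 206 and 6.14 to 21.3) overlapped. So did peritubular and endothelial markers (3.0 to 38.2 and 1.60 to 35.7) and blood markers (7.15 to 16.9 and 9.45 to 21.1). The part of these markers was not tested.

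The genotype difference of Uhrf1 was itself different between the stages. The log2 change at pachytene minus that at LZ was 1.46 (SE 0.36, adjusted p = 0.00953 by limma), and 34.9% of all genes tested were called in this direction and 3.49% in the other. The median of all genes was 0.72, and Uhrf1 stood 0.74 above it. After median-ratio scaling the difference was 0.55 (adjusted p = 0.132), where 2.37% of genes were called higher and 4.36% lower by limma. Before the spike-in scaling it was 0.25 (adjusted p = 0.555), where 0.753% were called higher and 5.42% lower. None of the other 5 tested genes was called here, with values between -0.84 for Dnmt3l and 0.94 for Dnmt1 (adjusted p = 0.0729 for Dnmt1).

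Between the stages in WT cells, Dnmt1, Uhrf1, Dnmt3b and Dnmt3l were higher in pachytene than in LZ libraries on the spike-in scale. Their log2 changes were 1.73 for Dnmt1 (SE 0.28, adjusted p = 6.35e-05), 2.25 for Uhrf1 (SE 0.25, adjusted p = 2.24e-06), 1.01 for Dnmt3b (SE 0.32, adjusted p = 0.0105) and 1.42 for Dnmt3l (SE 0.34, adjusted p = 0.00179), by limma. In this comparison 80.9% of all genes tested were called higher and 0.487% lower, and the median change was 1.64, so 4 of 6 higher is no more than the background. Dnmt3a (-0.09) and Tet3 (-0.02) did not pass the test and stood -1.73 and -1.66 relative to the median. Only 3.29% of the genes tested had a lower change than Dnmt3a and 3.82% a lower one than Tet3. The Dnmt3b call was lost without WT LZ replicate 3 (0.75, adjusted p = 0.0562). Markers of other cells differed between the stages, with Leydig markers at 704 to 2149 per 1000000 in WT pachytene and 6.14 to 21.3 in WT LZ libraries, peritubular and endothelial markers at 153 to 166 and 1.60 to 35.7, Sertoli markers at 196 to 292 and 382 to 681, spermatogonial markers at 143 to 214 and 489 to 684, and round spermatid markers at 8817 to 13203 and 20824 to 35722. Blood markers summed to 28.3 to 128 in WT pachytene and 9.45 to 21.1 in WT LZ libraries, without overlap. The part of these markers was not tested.

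With the median-ratio scaling, the same WT comparison called Dnmt3a (-1.71, adjusted p = 0.000301), Dnmt3b (-0.86, adjusted p = 0.0326) and Tet3 (-1.15, adjusted p = 0.00195) lower in pachytene, where 20.4% of genes were called higher and 17.8% lower by limma. Uhrf1 (0.23), Dnmt1 (-0.22) and Dnmt3l (0.01) were not called. Before the spike-in scaling the count was likewise 3 lower and 0 higher, where 25.1% of all genes were called lower and 14.7% higher. The sign for Dnmt3b therefore differed between the scalings, and its place below the median of all genes (-0.62 and -0.86) did not.

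In KO-labelled cells Uhrf1, Dnmt1 and Dnmt3b were higher in pachytene than in LZ libraries on the spike-in scale, and Dnmt3a was lower. Uhrf1 was 3.71 higher in pachytene than in LZ (SE 0.25, adjusted p = 6.57e-09), Dnmt1 2.66 (SE 0.28, adjusted p = 5.32e-07) and Dnmt3b 1.11 (SE 0.32, adjusted p = 0.00592), on the log2 scale by limma. Dnmt3a fell by 0.80 (SE 0.31, adjusted p = 0.029), and only 2.83% of genes were called lower while 76.8% were called higher. Dnmt3l (0.58) and Tet3 (-0.24) did not pass the test. The median was 2.29, above which Uhrf1 stood by 1.41 and Dnmt1 by 0.37, while Dnmt3a stood at -3.09 relative to it. The Dnmt3a call was lost without KO-labelled LZ replicate 1 (-0.81, adjusted p = 0.0547) or 3 (-0.66, adjusted p = 0.0999), or without KO-labelled pachytene replicate 1 (-0.75, adjusted p = 0.0718) or 2 (-0.68, adjusted p = 0.0933). Sertoli markers summed to 85.9 to 107 per 1000000 in KO-labelled pachytene and 691 to 1401 in KO-labelled LZ libraries, spermatogonial markers to 57.0 to 121 and 432 to 568, and Leydig markers to 282 to 903 and 7.08 to 206. Blood markers summed to 34.9 to 70.9 in KO-labelled pachytene and 7.15 to 16.9 in KO-labelled LZ libraries, without overlap. The peritubular and endothelial markers, at 26.9 to 41.6 and 3.0 to 38.2, and the round spermatid markers, at 297 to 1945 and 1631 to 12612, overlapped. The part of these markers was not tested.

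After median-ratio scaling Uhrf1 alone was higher in KO-labelled pachytene than in KO-labelled LZ cells (0.78, adjusted p = 0.000797), while Dnmt3a (-2.81), Dnmt3b (-1.49) and Tet3 (-1.40) were lower, where limma called 31.7% of genes higher and 29.3% lower. Dnmt1 was at -0.16 and not called. Before the spike-in scaling 4 of the 6 were called lower and 0 higher, where 40.3% of all genes were called lower and 19.8% higher. The WT and KO-labelled stage comparisons use separate libraries, and their difference is the one tested above, which passed on the spike-in scale for Uhrf1 only.

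The partners of these enzymes were described through lists of genes. The counts in KO-labelled against WT pachytene cells stand beside 24.6% of all genes called higher and 14.3% lower on the spike-in scale, 3.57% and 9.62% after median-ratio scaling, and a median of 0.37 on the spike-in scale. Of 10 maintenance partners tested, 3 were higher and 1 lower in KO-labelled pachytene libraries on the spike-in scale, close to the shares of all genes. Cdca7, which recruits the remodeller Hells, had 0.454, 0.516 and 8.66 FPKM in KO-labelled pachytene libraries, against 49.99, 27.2 and 21.2 in WT pachytene libraries (log2 change -3.52, SE 0.58, adjusted p = 0.00273 by limma). KO-labelled replicate 3 stood well above the other KO-labelled libraries and below every WT library. Pcna, the replication clamp, was higher (0.75, adjusted p = 0.0191). After median-ratio scaling 2 of the 10, Cdca7 (-3.04) and Hells (-0.83), were lower and none higher. The list's median was 0.40 on the spike-in scale, beside 0.37 for all genes.

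Of 14 de novo and germline partners tested, 3 were higher and 4 lower in KO-labelled pachytene libraries, with a median of -0.09, beside 0.37 for all genes, of which 24.6% were called higher and 14.3% lower. Tex15, a partner of the piRNA-directed methylation machinery, had 2.57, 5.09 and 6.95 FPKM in KO-labelled libraries, against 23.0, 14.97 and 18.9 in WT libraries (-1.82, SE 0.30, adjusted p = 0.00273 by limma). Morc1, needed for transposon silencing in the male mouse germ line, was at 3.96, 4.50 and 12.6 in KO-labelled libraries, against 17.6, 17.4 and 22.6 in WT libraries (-1.48, SE 0.38, adjusted p = 0.0165). The groups overlapped for neither gene, and after median-ratio scaling both remained lower (-1.83 and -1.55), with 4 of the 14 lower and 1 higher.

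Of 8 tested TET partners and enzymes of cofactor supply, 1 was higher and 2 lower in KO-labelled pachytene libraries, beside 24.6% and 14.3% of all genes. Cxxc5, a CXXC zinc finger protein, fell by 1.98 (adjusted p = 0.00922 by limma) and Ogt, which binds TET proteins and adds N-acetylglucosamine, fell by 1.11 (adjusted p = 0.0186). Of 17 excision genes tested, 2 were higher and 2 lower, under those shares. Ung, the uracil glycosylase, fell by 1.75 (adjusted p = 0.00919), with 3.11, 4.51 and 8.51 FPKM in KO-labelled libraries, against 27.4, 14.2 and 18.0 in WT libraries. Neil2, another glycosylase, fell by 1.29 (adjusted p = 0.0131).

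Of 7 methyl-CpG readers tested, 1 was higher and 2 lower, beside 24.6% and 14.3% of all genes, with Zbtb33, also known as Kaiso, at -1.41 (adjusted p = 0.0144 by limma) and Zbtb4 at 0.79 (adjusted p = 0.0289). Of 11 genes of methyl donor supply tested, 2 were higher and none lower, among them Ahcyl2 (0.97, adjusted p = 0.0151), a relative of the hydrolase that removes S-adenosylhomocysteine. After median-ratio scaling the counts of higher and lower genes were 0 and 2 for TET partners, 1 and 1 for excision, 0 and 1 for readers, and 0 and 0 for donor supply, beside 3.57% and 9.62% of all genes. The lower marker sums of spermatogonia, Sertoli and other cells given above come from the same libraries. Their part in the changes of these list genes was not tested.

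**Figure D4:**
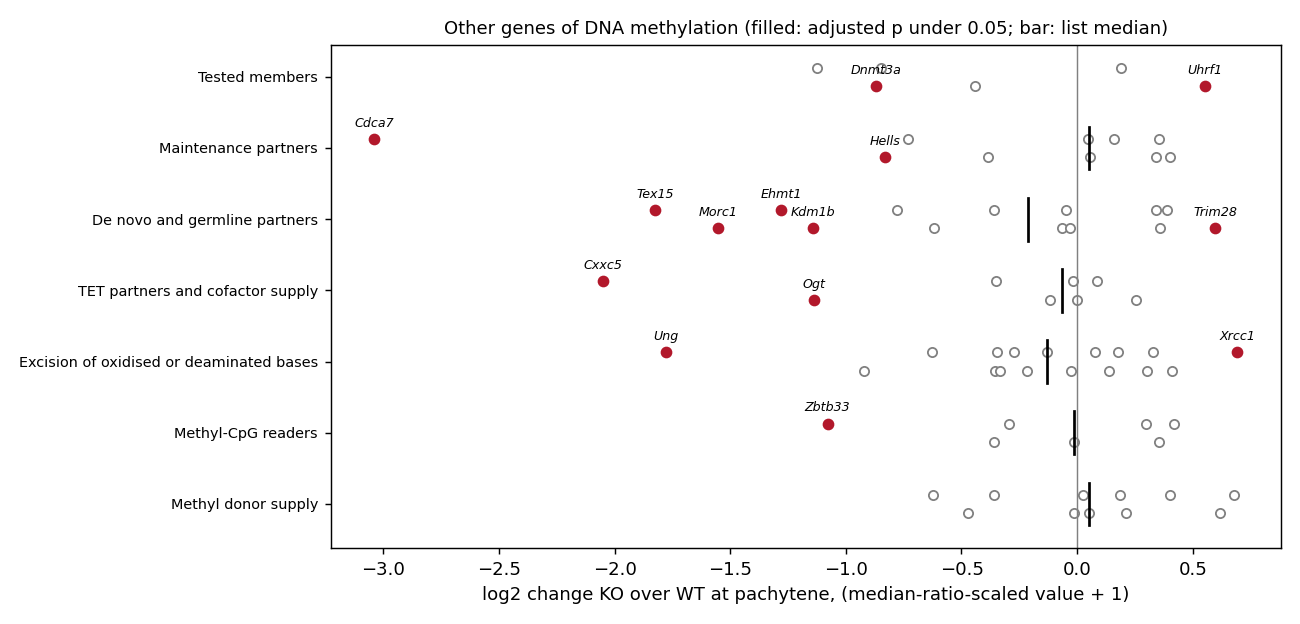
Log2 change in KO-labelled against WT pachytene cells of each tested gene of the 6 partner lists and of the 6 tested members after median-ratio scaling (points; filled and named where called by limma), with the median of each list as a short bar and a vertical line at 0. Cdca7, at -3.04, lies farthest to the left; names beyond those in the text follow from the call alone.

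At LZ the lists held no called gene that was higher in KO-labelled libraries on the spike-in scale. Over all genes tested, limma called 0.136% higher and 12.9% lower there. Called lower were 1 of 10 maintenance partners, 1 of 14 de novo and germline partners and 1 of 8 TET partners. Also lower were 2 of 17 excision genes, 0 of 7 readers and 2 of 11 donor supply genes. These are too few to set apart from that background. Lower were Hdac1 (-0.83), a deacetylase that works with Uhrf1 and Dnmt1, Zfp57 (-1.32), which guards imprints, Idh1 (-0.86), which makes 2-oxoglutarate for dioxygenases, Polb (-0.97) and Nthl1 (-0.87) of base excision, and Shmt1 (-0.94) and Mat2b (-0.76) of donor supply, with adjusted p of 0.0214 to 0.0484 by limma. Over all genes tested, 1992 were called lower at LZ in the reported fit, and 0 with the libraries of this comparison alone. None of the named genes was thus called with the LZ libraries alone. When an LZ replicate was left out the count was 4 to 2925, with 6 without WT replicate 1 and 4 without WT replicate 2. None of the named genes was called after median-ratio scaling, where 0.39% of all genes tested were called higher and 0.688% lower. On that scale 1 gene of the excision list, the cytidine deaminase Apobec3, was called higher (1.76, adjusted p = 0.0213 by limma). Apobec3 was low, at 0.732, 0.698 and 2.01 FPKM in KO-labelled LZ libraries, and in WT LZ libraries it was listed at 0 in replicate 1 and had 0.165 and 0.0838 in replicates 2 and 3.

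For each tested member the genes of most similar pattern were sought over the 12 libraries by Pearson's r of log2(median-ratio-scaled value + 1), as a description in which the points share stage and genotype. Lig4 (0.97) and Eif3c (0.96) were most like Uhrf1, and Senp3 (0.94) and Ppp1r15b (0.90) most like Dnmt1. Nisch and Pbx2 (0.99 each) were most like Dnmt3a, Fam171a1 (0.98) and Anxa11 (0.98) most like Dnmt3b, 2810055G20Rik and Catsper3 (0.94 each) most like Dnmt3l, and D930015E06Rik and Trim43b (0.99 each) most like Tet3. Among the members, Dnmt3a ran with Tet3 (0.95) and Dnmt3b (0.91), Uhrf1 ran against Dnmt3b (-0.86) and Dnmt3a (-0.83), and Uhrf1 and Dnmt1 showed little relation (0.03).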

How the data were processed

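The deposited table gives FPKM per gene, which the authors scaled between libraries with ERCC spike-in RNA, as the deposited table's name says. Per the submitters' processing notes, the tools were TopHat2 2.1.1 and Cufflinks 2.2.1, and the genome build was mm9. The annotation, the scaling formula and any use of strand are not given in the sources used here. The common factor of each library was therefore inferred, as the ratio of whole numbers after whose removal most values of at least 1 had a fixed number of significant digits. Only ratios that brought the summed values within preset bounds were tried. Without strand, reads of genes that overlap members in the reference annotation (Dnmt3aos, Dnmt3bos, Gm42567 at Tet2, B230319C09Rik at Tet3 and Aire at Dnmt3l) cannot be told apart from the reads of those members. The 4 columns without a name were not used. Groups came from the labels.

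Genes with FPKM of at least 1 in at least 3 of 12 libraries were tested as log2(FPKM + 1) with limma 3.58.1 in R 4.3.3, in 1 fit of all 12 libraries with variances that follow the mean, two-sided, and called at a Benjamini-Hochberg adjusted p under 0.05. The procedure was tested on simulated data whose noise was drawn independently for each gene and library. Errors shared by all genes of a library, such as those of scaling, were not simulated, so that test does not cover them. Tables and figures were made with Python 3.11.15. Alternatives were pseudocounts of 0.1 and 5, no filter and a filter of 5, median-ratio scaling, values before the spike-in scaling, a replicate block, the libraries of a comparison alone and leaving out each replicate. Of each partner list, at most the 2 called genes with the largest absolute change per comparison are named, and of each member the 2 most correlated genes. The members, lists and tests were chosen with earlier results of these data known. Piwil4, Cxxc4, Prdm14, Neil1 and Mat1a were among the list genes that did not pass the filter, and Spocd1 and Idax were not matched. Promoter windows are from RefSeq on GRCm38.p6, a later build than mm9, and no deposited value was placed by coordinate. Some named results of the partner lists are not reported here.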

Additional observations from a re-analysis of the deposited data

Results flagged for a closer look

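The genotype effect on Uhrf1 differed between the stages. Its log2 change in KO-labelled against WT cells was 0.90 at pachytene and -0.56 at LZ, a difference of 1.46 (SE 0.36, adjusted p = 0.00953 by limma), with all KO-labelled pachytene libraries above all WT pachytene libraries and overlapping groups at LZ. The sign of the difference stayed positive over 20 settings, the reported one included, at 0.25 to 1.66, and its call was lost after median-ratio scaling and before the spike-in scaling. Of all genes tested, 34.9% were called in this direction on the spike-in scale, and the median difference was 0.72. All KO-labelled pachytene libraries lay above all WT pachytene libraries for 36.4% of the genes tested. No cause was tested.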

How the results depend on the processing

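The scaling of the libraries decided most changes of sign, and their cause was not tested. Leaving out a library decided most of the lost calls at pachytene. Of the log2 changes recomputed under alternatives, 369 kept their direction and side of the threshold, 28 lost a call, 6 gained one and 32 changed sign. In KO-labelled against WT pachytene cells, 1 member was called higher and 2 lower. Called higher were 0 before the spike-in scaling, 0 with the replicate block and 0 to 1 when a replicate was left out. Of all 15400 genes, 3784 were called higher in the reported fit and 40 before the spike-in scaling. The count was 990 with the replicate block and 300 to 4604 when a replicate was left out. Called lower were 1 with a pseudocount of 0.1, 0 with the filter of 5 (which leaves out Dnmt3a, Dnmt3l and Tet3), 1 after median-ratio scaling, 0 on the values without spike-in scaling, 1 with the replicate block and 0 to 2 when a replicate was left out. Of all genes, 2196 were called lower in the reported fit. In the same order of settings the counts were 1535, 1579 of 11975, 1482, 1667, 1936 and 978 to 2348. In pachytene against LZ, WT cells had 4 members higher and 0 lower, against 0 and 3 under the other scalings, median-ratio and none. Of all genes, 80.9% were higher and 0.487% lower, against 20.4% and 17.8% with median-ratio scaling and 14.7% and 25.1% with none. KO-labelled cells had 3 members higher and 1 lower in that comparison, against 1 and 3 after median-ratio scaling, 0 and 4 on the values without spike-in scaling, 0 lower with the filter of 5, and 0 to 1 lower when a replicate was left out. Of all genes, 76.8% were higher and 2.83% lower, against 31.7% and 29.3% with median-ratio scaling and 19.8% and 40.3% with none. Called lower were 310 of 11975 genes with the filter of 5, and 309 to 480 of 15400 when a replicate was left out. For the difference of the genotype effects, 1 member was called higher, against 0 under both other scalings. Of all genes, 34.9% were called higher there, against 2.37% after median-ratio scaling and 0.753% before the spike-in scaling.

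Changes of sign are given with the median-ratio value first and the value before the spike-in scaling after it. At LZ, KO-labelled against WT, Dnmt1 was 0.13 and 0.14, Uhrf1 0.0026 and 0.0095, and Dnmt3a 0.23 and 0.22. At pachytene Dnmt1 was -0.084 before the spike-in scaling. In pachytene against LZ in WT, Dnmt1 was -0.22 and -0.44 and Dnmt3b -0.86 and -1.03, while before the spike-in scaling Uhrf1 was -0.022 and Dnmt3l -0.15. In KO-labelled cells Dnmt1 was -0.16 and -0.66, Dnmt3b -1.49 and -1.75, and Dnmt3l -0.53 and -0.53. In the difference of the effects Dnmt3b was -0.63 and -0.72, and -0.027 with a pseudocount of 5, and Dnmt1 was -0.22 before the spike-in scaling. When a replicate was left out, Dnmt3a ranged from -0.54 to 0.022 at LZ and from -0.36 to 0.21 in the WT stage comparison, Tet3 from -0.11 to 0.15 in that same comparison, and in the difference of the effects Dnmt3b from -0.19 to 0.36 and Tet3 from -0.39 to 0.0039.

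The deviations of libraries with the same replicate number correlated at -0.17 to 0.22 between genotypes within a stage, and at 0.03 to 0.26 between stages within a genotype, positive in all 6 such pairs. Not every pair was over 0.1, so the numbers were not taken to pair the libraries. With the replicate block, the pachytene changes of Uhrf1 (0.90, adjusted p = 0.0606) and Dnmt3a (-0.98, adjusted p = 0.0584 by limma) lost their calls. Depth is unknown, so no detection limit can be given for Tet1 and Tet2.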
